A study of Mus musculus with 8 samples.

Results

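A set of 8 limb transcription factors was followed in hindlimb cells with and without Bapx1: the T-box genes Tbx1, Tbx2, Tbx3, Tbx4, Tbx5, Tbx15 and Tbx18, and the homeobox gene Pitx1. The intensity rows were named by matching values to the deposited log2 table, which named 35454 of 45281. Every named probe annotated with one of these symbols was taken. This gave 16 of the 45281 probes, for 8 of 19057 annotated genes. Of the 16 probes, 9 were above background often enough to be tested and stood for 7 genes, with Tbx5 the exception.

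The cells came from E12.5 mouse hindlimbs of strain C57BL/6J;129 and were sorted by flow cytometry for EGFP driven by the endogenous Bapx1 promoter. The 4 null arrays hold RNA of homozygous embryos in which EGFP follows the Bapx1 start codon and replaces a short stretch of the coding sequence, and the 4 wildtype arrays hold RNA of embryos, written as heterozygous by the study, that carry EGFP behind an internal ribosomal entry site at the 3' end of an intact Bapx1. Both groups thus carry a targeted Bapx1 allele, and the reporter differs between them. The arrays are biological replicates by the methods, and how many embryos contributed to an array is unknown here. Each limma p-value sets the genotype difference against the spread among arrays within a genotype. How far this covers variation between embryos is unknown.

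T-box proteins share a DNA-binding domain and act as activators or repressors of transcription during development. In limb buds Pitx1 and its downstream gene Tbx4 belong to the hindlimb, and Tbx5, the closest relative of Tbx4, belongs to the forelimb. Both T-box genes drive limb outgrowth through Fgf10. Tbx2 and Tbx3 are repressors found along the anterior and posterior limb margins, Tbx15 and Tbx18 shape the proximal skeleton and girdles, and Tbx1 is best known from the pharynx and head muscle and from DiGeorge syndrome. Bapx1 is itself an NK-type homeobox repressor of the early skeleton. The comparison addresses which of these limb regulators differ in the Bapx1 domain of the hindlimb when Bapx1 is lost.

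Between 18375 and 20256 probes were detected per array. Of 11 identified limb mesenchyme markers, 9 were tested, all 9 were detected on all 8 arrays, and Msx2 was never detected. Testing itself required detection on at least 4 of 8 arrays, so these counts do not check the tissue label. Wildtype replicate 2 stood apart in Y-linked RNA, with Eif2s3y at a normalized log2 level of 7.86 there against 10.24 to 10.82 on the other wildtype arrays and 11.17 to 11.71 on the null arrays. Kdm5d, also Y-linked, read 8.79 to 9.50 on null and 6.30 to 8.61 on wildtype arrays, so neither gene overlapped between genotypes, and the part of this difference in the results was not tested. Wildtype replicate 4 had the fewest detected probes. Both Bapx1 probes were detected on 4 of 4 null arrays and 0 of 4 wildtype arrays, the reverse of a reading from deleted sequence. Which part of the transcript they cover was not tested, so they do not check the genotypes, and every direction given here rests on the sample titles.

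Tbx1 was the one member that passed the test, and it was lower on the arrays labelled null. Its 1 probe had deposited intensities of 35.1, 16.6, 26.2 and 32.8 on null replicates 1 to 4, against 221, 95.5, 163 and 172 on wildtype replicates 1 to 4. After normalization the log2 levels were 5.63, 5.27, 5.37 and 5.68 on the null arrays, against 7.39, 6.82, 7.25 and 7.89 on the wildtype arrays. All 8 values counted as detected, the 4 null values lay close together near background, and no null array reached the lowest wildtype array. Tbx1 averaged 5.49 ± 0.20 in null and 7.34 ± 0.44 in wildtype cells (SD, n = 4 each), a log2 fold of -1.85 ± 0.22 (SE) or 3.61-fold lower (limma, adjusted p = 0.0052, 95% interval of the log2 fold -2.34 to -1.37). An exact two-sided permutation test of the normalized levels over the 70 labelings of the arrays gave p = 0.0286, the smallest this design allows. The call was kept with each of the 8 arrays left out in turn, at log2 folds between -2.03 and -1.68 and adjusted p between 0.00729 and 0.0297. The call was lost with scaling by median absolute deviation (log2 fold -2.37, limma, adjusted p = 0.0885). It was also lost by the ordinary test on the normalized levels, in place of limma (adjusted p = 0.0664). The log2 fold ran from -2.42 to -1.14 over other processing. In RNA of sorted bulk cells, fewer Tbx1-positive cells and less Tbx1 RNA per cell cannot be told apart.

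Marker RNA of several cell types differed between genotypes on the same arrays. Of 8 platelet markers, 7 were lower in null cells and 0 higher, where 0.439% of all tested probes were called lower and 0.322% higher. Their summed normalized level was 347 to 1310 on null arrays against 5280 to 6130 on wildtype arrays. Each platelet marker was detected on all 4 wildtype arrays, and Vwf, Gp1bb, Itga2b and Ppbp on 2 of 4 null arrays and Gp9 on 1. The 6 erythroid markers (1 higher, Hbb-bh1) summed to 5340 to 41300 on null and 2360 to 4340 on wildtype arrays, with Alas2 not detected on any wildtype array. The 10 cartilage markers (1 lower, Comp) summed to 33700 to 41200 on null and 43000 to 48800 on wildtype arrays. None of these 3 sums overlapped between genotypes, and their part in the Tbx1 difference was not tested. The lists for limb mesenchyme, joint and tendon, ectoderm, endothelium, nerve and Schwann, and macrophage cells had overlapping sums and 0 markers called. Their median log2 folds were -0.04, -0.28, -0.09, -0.42, -0.32 and -0.70 in that order. Skeletal muscle, a tissue that Tbx1 serves in the head, had 0 of 8 markers called, with sums of 1430 to 4200 on null and 1950 to 3110 on wildtype arrays, and Myf5 and Myf6 were never detected. The muscle sums overlapped between genotypes (exact permutation test, p = 0.371). All 8 muscle log2 folds were positive, with a median of 0.24, but they come from the same arrays and are not separate evidence. Myog, a regulator of muscle differentiation, was detected on 4 of 4 null and 0 of 4 wildtype arrays (limma, adjusted p = 0.232). Myog and Alas2 met the detection filter through the null arrays alone, so the filter itself favoured a positive fold for them.

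**Figure D1:**
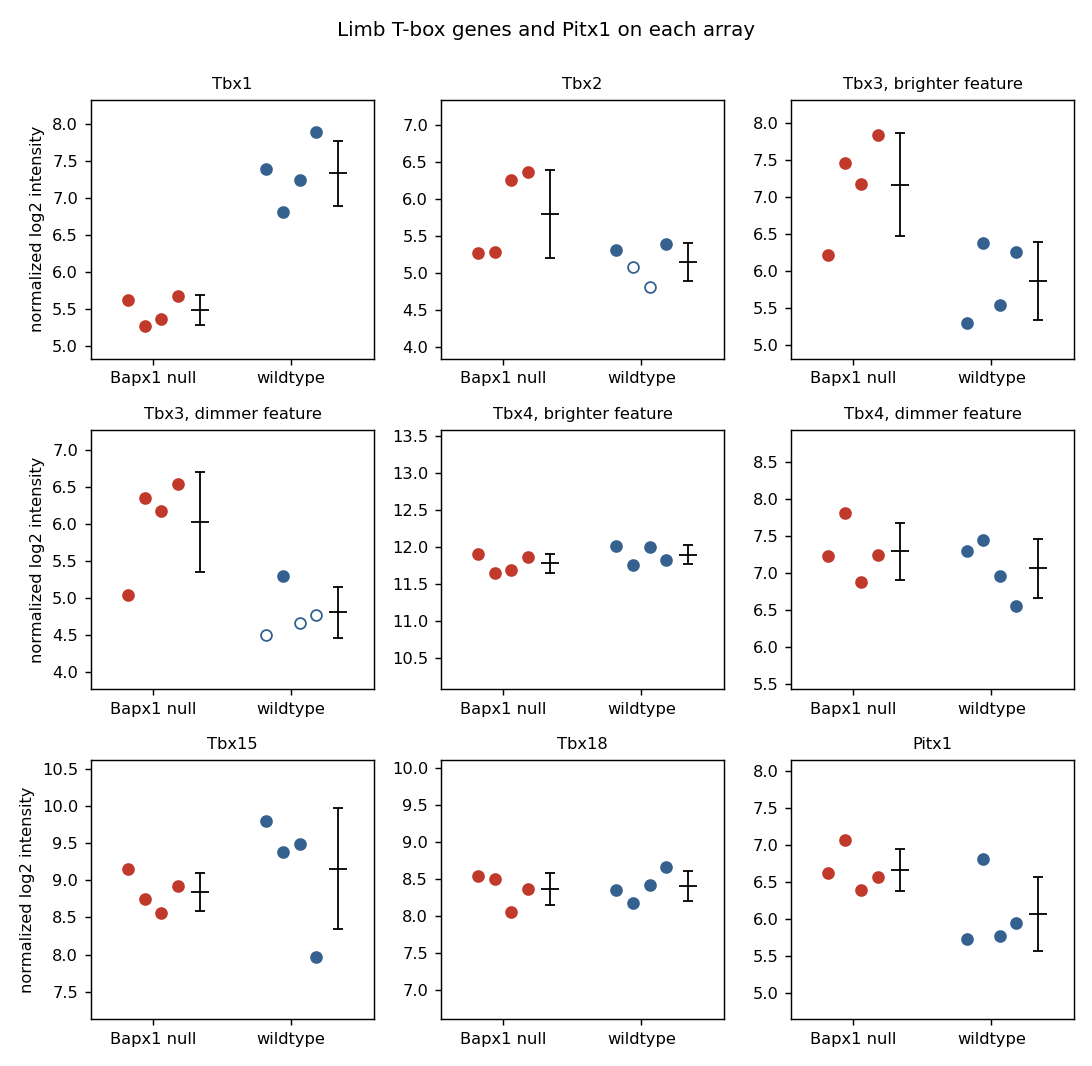
Normalized log2 intensity of the 9 tested probes on each array, null arrays left in red and wildtype arrays right in blue, replicates 1 to 4 from left to right within a group. Filled points were above background and open points were not, the black bars give mean ± SD, and every panel spans the same range of log2 units. The Tbx1 points of the 2 genotypes do not overlap, while every other panel has overlap.

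Across the members, 1 of 7 tested genes was called lower and 0 higher, where 0.439% of all 19568 tested probes were called lower and 0.322% higher. Of the 9 member probes, 1 was lower without overlap between genotypes and 0 were higher without overlap, against 3.74% and 2.55% of all tested probes. The median log2 fold of the 7 genes was -0.03, beside -0.04 over all 10772 tested genes, with 3 positive and 4 negative values. Signs were thus mixed among the members. One Tbx2 and one Tbx3 probe met the detection filter with fewer than 4 wildtype arrays above background, so the filter itself favoured a difference for them.

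**Figure D2:**
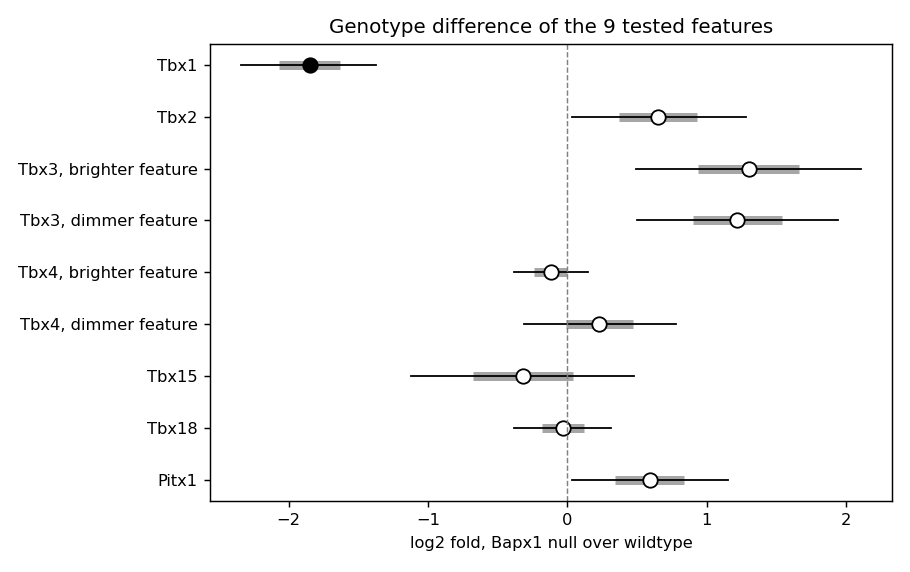
Log2 fold, null over wildtype, of the 9 tested probes, with the thin line for the 95% interval, the grey bar for ± 1 SE and a filled point for an adjusted p under 0.05. Tbx1 at -1.85 is the one filled point, the Tbx3 probes lie at 1.30 and 1.22, and the Tbx4, Tbx15 and Tbx18 intervals include 0.

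Tbx3, a repressor whose loss of one copy in humans malforms the ulnar side of the forearm, had the largest positive value but did not pass. Its brighter probe read log2 levels of 6.21, 7.45, 7.17 and 7.83 on the null arrays, against 5.29, 6.37, 5.54 and 6.25 on the wildtype arrays. Null replicates 2, 3 and 4 lay above every wildtype array, and null replicate 1 fell within the wildtype range. The means were 7.16 ± 0.69 in null and 5.86 ± 0.53 in wildtype cells (SD, n = 4 each), and the log2 fold was 1.30 ± 0.36 (SE, limma, adjusted p = 0.207, 95% interval 0.49 to 2.11). A dimmer Tbx3 probe read 5.04, 6.35, 6.17 and 6.54 on the null arrays, all detected, against 4.50, 5.29, 4.66 and 4.77 on the wildtype arrays, of which replicate 2 alone was detected. It ordered the arrays in the same manner, with null replicate 1 lowest among null and wildtype replicate 2 highest among wildtype arrays, and its log2 fold was 1.22 ± 0.32 (SE, limma, adjusted p = 0.173). With 3 wildtype arrays at background the size of this fold is uncertain, and it ran from 0.64 to 3.08 over other processing. Without null replicate 1 the dimmer probe passed (1.54, limma adjusted p = 0.0169) and the brighter one did not (1.62, limma adjusted p = 0.0614). With a block for the replicate number the brighter probe passed (limma adjusted p = 0.0402) and the dimmer one did not (limma adjusted p = 0.0902). Whether these numbers pair the arrays is unknown. A further Tbx3 probe was detected on 2 null and 0 wildtype arrays, and the last on none, so these were not tested.

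Tbx2, which is close to Tbx3 in sequence and partly shares its role, split the null arrays in pairs. Its tested probe read 5.28, 5.29, 6.26 and 6.37 on null replicates 1 to 4, against 5.32, 5.08, 4.82 and 5.39 on wildtype replicates 1 to 4. Null replicates 3 and 4 stood above all wildtype arrays, while null replicates 1 and 2 lay among them, and wildtype replicates 2 and 3 were not detected. With means of 5.80 ± 0.60 in null and 5.15 ± 0.26 in wildtype cells (SD, n = 4 each), the log2 fold was 0.65 ± 0.28 (SE, limma, adjusted p = 0.42, 95% interval 0.03 to 1.28). The other Tbx2 probe was detected on 0 of 8 arrays. In the RefSeq annotation of assembly GRCm38.p6 Tbx2 and Tbx4 are direct neighbours on one chromosome, and Tbx3 and Tbx5 lie together on another with no protein-coding gene between them. Of the second pair, Tbx3 was detected on all 8 arrays and Tbx5 on none.

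Tbx4, the hindlimb T-box gene, was detected by both of its probes on all 8 arrays and did not pass by either. The brighter probe had deposited intensities of 3604, 2399.8, 3521 and 3593.5 on the null arrays, against 5210.1, 3324, 4537 and 3205.5 on the wildtype arrays. After normalization the log2 levels lay within a narrow band, from 11.65 to 11.90 on null and from 11.75 to 12.01 on wildtype arrays, and overlapped. The log2 fold was -0.12 ± 0.12 (SE, limma, adjusted p = 0.751), and its 95% interval ran from -0.38 to 0.15. Its dimmer probe averaged 7.30 ± 0.39 in null and 7.07 ± 0.40 in wildtype cells (SD, n = 4 each) and gave 0.23 ± 0.24 (SE, limma, adjusted p = 0.765). The 2 Tbx4 probes therefore differed in sign, both with intervals that include 0.

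Pitx1, the homeobox gene upstream of Tbx4 in hindlimb identity, was detected on all 8 arrays. It read 6.62, 7.06, 6.38 and 6.56 on the null arrays, against 5.73, 6.80, 5.77 and 5.94 on the wildtype arrays. Wildtype replicate 2, the array low in Y-linked RNA, exceeded 3 of the null arrays, and the other wildtype arrays lay below all of them. Pitx1 averaged 6.65 ± 0.29 in null and 6.06 ± 0.50 in wildtype cells (SD, n = 4 each), a log2 fold of 0.59 ± 0.25 that did not pass (SE, limma, adjusted p = 0.417, 95% interval 0.03 to 1.15). Without wildtype replicate 2 it was 0.84 (limma, adjusted p = 0.103), the largest value with 1 array left out. With any other array left out it lay between 0.46 and 0.68 and did not pass either. Tbx1 and the brighter Tbx3 probe gave -2.03 and 1.48 without wildtype replicate 2 (limma, adjusted p = 0.00729 and 0.153).

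Tbx5, the forelimb counterpart of Tbx4, was not detected on any of the 8 hindlimb arrays by either probe. Its normalized log2 levels lay between 4.42 and 4.75 over both probes, with deposited intensities from -6.3 to 6.5. Genotypes overlapped for both probes, and no fold is given for a gene at background in both groups. The detection pattern of the Pitx1, Tbx4 and Tbx5 probes was therefore the same in both genotypes, with the first 2 genes detected on 8 of 8 arrays and Tbx5 on 0.

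Tbx15 and Tbx18, related genes of limb mesenchyme and of the skeletal elements near the trunk, did not pass. Tbx15 read 9.15, 8.75, 8.56 and 8.92 on the null arrays, against 9.80, 9.39, 9.49 and 7.96 on the wildtype arrays. Wildtype replicates 1, 2 and 3 lay above every null array, and wildtype replicate 4 lay below every null array. The log2 fold was -0.32 ± 0.36 over all arrays (SE, limma, adjusted p = 0.788, 95% interval -1.12 to 0.48), -0.71 without wildtype replicate 4 (limma, adjusted p = 0.143) and -0.10 without wildtype replicate 1 (limma, adjusted p = 0.943), so its size depended on single arrays. A second Tbx15 probe was detected on 2 null and 0 wildtype arrays and was not tested. Tbx18 read 8.54, 8.49, 8.05 and 8.36 on the null arrays, against 8.34, 8.17, 8.41 and 8.66 on the wildtype arrays, with its second probe never detected. The Tbx18 genotypes were interleaved, at a log2 fold of -0.03 ± 0.15 (SE, limma, adjusted p = 0.955, 95% interval -0.38 to 0.31).

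Among 4 tested genes of hindlimb identity, 0 were called. With 0.439% of all tested probes called lower and 0.322% higher, a count of 0 here or in the lists that follow says little. Hoxc10, Hoxc9 and Hoxd10, posterior Hox genes of the hindlimb, gave log2 folds of -0.10, 0.05 and 0.04 (limma, adjusted p = 0.889, 0.95 and 0.958). Among 14 tested genes of limb outgrowth linked to Tbx4 and Tbx5, 0 were called and the median was 0.14. Fgf10, the outgrowth signal that both T-box proteins activate, gave 0.50 ± 0.13 and its receptor Fgfr2 -0.50 ± 0.10 (SE, limma, adjusted p = 0.185 and 0.0782). Ligand and receptor thus had opposite signs, and neither passed. The zinc-finger gene Osr2 gave -0.39 (limma, adjusted p = 0.316).

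Among 11 tested genes that pattern the limb margins or that Tbx2 and Tbx3 repress in the cell cycle, 0 were called and the median was 0.22. The Iroquois genes Irx3 and Irx5 gave 0.89 and 0.72 and the hedgehog receptor Ptch1 -0.35 (limma, adjusted p = 0.335, 0.535 and 0.516), and Shh, Bmp2 and Cdkn2a were never detected. Of 8 tested girdle and Groucho genes listed with Tbx15 and Tbx18, 1 was lower and 0 higher (0.439% and 0.322% of all tested probes). Their median was 0.04, beside -0.04 over all tested genes. The lower one was Tle2, a Groucho-family corepressor, at 8.09 ± 0.16 in null and 9.11 ± 0.15 in wildtype cells (SD, n = 4 each) and a log2 fold of -1.02 ± 0.13 (SE, limma, adjusted p = 0.0073). The other Groucho genes named by smallest p, Tle5 and Tle3, gave -0.41 and 0.34, and the mesenchymal homeobox gene Prrx1 gave 1.18 (limma, adjusted p = 0.286, 0.323 and 0.0994). The girdle regulators Emx2, Pax1, Pax9 and Alx1 were never detected.

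**Figure D3:**
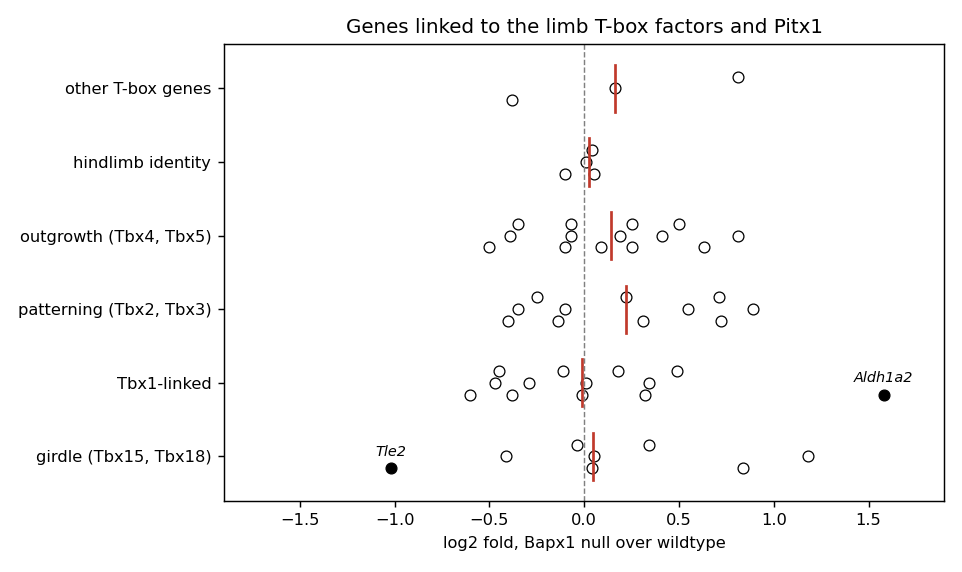
Log2 fold, null over wildtype, of each tested gene in 6 lists linked to the members, 1 point per gene, filled where the adjusted p was under 0.05, with the list median in red. Aldh1a2 at 1.58 and Tle2 at -1.02 are the filled points, and the medians lie between -0.01 and 0.22.

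Of 25 listed genes tied to Tbx1 in the pharynx and head mesoderm, 19 were identified on the array, 13 were tested and 6 were never detected. With 0.439% of all tested probes called lower and 0.322% higher, few calls would be found in any list of this size. Of the 13 tested, 0 were lower and 1 was higher, with a median of -0.01 beside -0.04 over all tested genes. The higher one was Aldh1a2, the enzyme that makes retinoic acid in the embryo, at 6.90 ± 0.50 in null and 5.31 ± 0.29 in wildtype cells (SD, n = 4 each), a 2.99-fold difference (log2 fold 1.58 ± 0.25 SE, limma, adjusted p = 0.0242), with 3 of 4 wildtype arrays above background. It lost the call without any single array other than null replicate 1, at adjusted p between 0.0519 and 0.0873. The homeobox gene Gbx2, the forkhead gene Foxc2 and the ligand Wnt5a gave -0.60, -0.47 and 0.34 (limma, adjusted p = 0.239, 0.384 and 0.419). Of 10 further T-box genes listed, 6 were identified on the array and 3 were tested. Eomes, Tbx6 and Mga gave 0.81, -0.38 and 0.16 (limma, adjusted p = 0.235, 0.59 and 0.798). Their summed normalized level was 801 to 1830 on null and 688 to 751 on wildtype arrays, without overlap. Tbr1, Tbx20 and Tbx22 were never detected, and T, Tbx10, Tbx19 and Tbx21 were not identified.

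The 5 genes whose levels most resembled Tbx1 over the 8 arrays were Tle6, Lcp2, Soga1, Tbxas1 and Mid2, with Pearson r of 0.976, 0.975, 0.967, 0.964 and 0.963. The 8 arrays fall into 2 genotypes, so these values mostly restate the genotype difference, and after removing the genotype means r was 0.70, 0.70, 0.84, 0.53 and 0.55. The correlations are given as a description. Tle6, a member of the Groucho family, averaged 7.53 ± 0.12 in null and 8.65 ± 0.15 in wildtype cells (SD, n = 4 each), 2.18-fold lower (limma, adjusted p = 0.00412). Lcp2, an adaptor of blood cell receptors, was not detected on any null array and was at least 1.67-fold lower (limma, adjusted p = 0.0066), a bound set by the dimmest detected probe of each null array. Lcp2 met the detection filter through the wildtype arrays alone, so the filter itself favoured a difference. Tbxas1, the thromboxane synthase of platelets, was 4.49-fold lower (limma, adjusted p = 0.00205) but was detected on 1 null array, so the fold rests in part on background readings, and its log2 value ran from -4.07 to -1.20 over other processing. Mid2, a microtubule-associated ubiquitin ligase, was 1.63-fold lower (limma, adjusted p = 0.0259) but lost the call with any 1 array left out. Soga1 gave a log2 fold of -0.41 and did not pass (limma, adjusted p = 0.213).

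**Figure D4:**
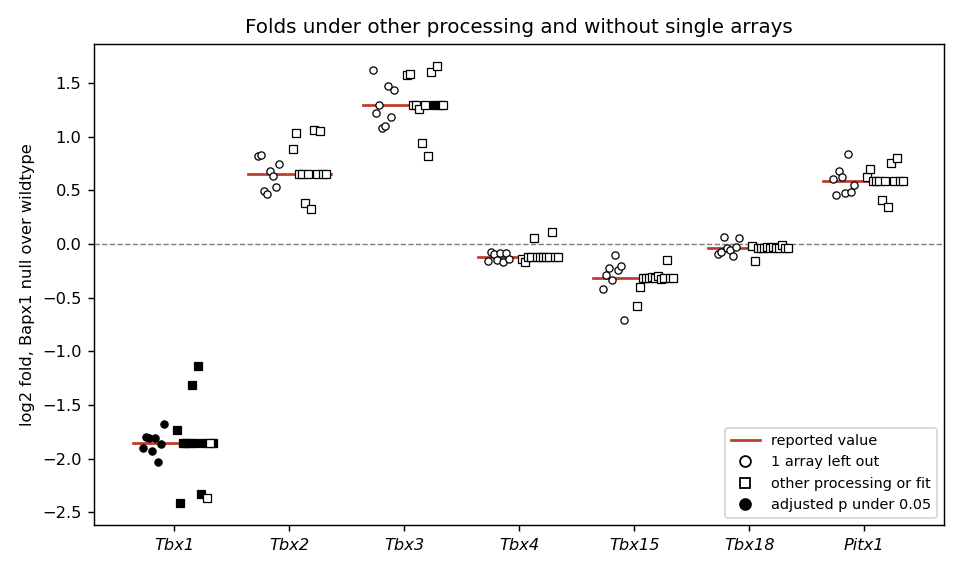
Log2 fold, null over wildtype, of the 7 tested members under each alternative, with circles for fits that leave out 1 array, squares for other processing or another fit, filled symbols for an adjusted p under 0.05 and a red line at the reported value. Tbx1 runs from -2.42 to -1.14 with 2 open squares, and Tbx3 from 0.83 to 1.66 with 1 filled square.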

How the data were processed

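RNA of sorted hindlimb cells had been read on Illumina mouse BeadChips, and sample titles gave the groups. The members and gene lists were chosen with earlier results of these data known. The authors exported each deposited intensity after background subtraction in GenomeStudio, and 30.9% to 34.3% of an array's values lay below 1. The deposited detection score is 1 minus a detection p-value. The separate deposited log2 table, median-centred per array and per probe, named the intensity rows by matching values and served as an alternative.

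Intensities were background-corrected by normexp, with detection p-values standing in for negative controls and an offset of 16, and quantile normalized (neqc, limma 3.58.1, R 4.3.3). The 19568 of 45281 probes detected at p under 0.05 on at least 4 of 8 arrays were tested with limma (lmFit and eBayes, two-sided) and Benjamini-Hochberg adjustment over all of them. All tested rows were named by a unique match, and 16571 carried 1 gene symbol. Fold changes are null over wildtype. A gene with several probes is represented by its brightest probe. All member probes among the 35454 named rows are reported, and an untested member probe could be missing among the unnamed rows. From each gene list the called genes and up to 3 others by smallest p are named, and for Tbx1 the 5 genes with the highest Pearson correlation. The steps were tested on simulated intensities. Alternatives covered background correction, normalization, filters, the replicate block, array weights, the test, the probe and single arrays. The number of arrays limits the precision (median standard error of a log2 fold 0.165).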

Additional observations from a re-analysis of the deposited data

How the results depend on the processing

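Tbx1 kept its sign under all 21 alternatives and its call under 19, and leaving out single arrays gave log2 folds of -2.03 to -1.68. It did not pass with scaling by median absolute deviation (-2.37, limma adjusted p = 0.0885). Nor did it pass by the ordinary t-test on the normalized levels (-1.85, adjusted p = 0.0664), so 0 member genes were called lower under either. Its log2 fold was -1.32 with a neqc offset of 50 and -1.14 with normexp at an offset of 50 without negative controls. With the replicate block, 1 member gene was called higher, Tbx3 (1.30, limma adjusted p = 0.0402). Whether the replicate numbers pair the arrays is unknown. Same-numbered deviations correlated at 0.0738, 0.457, 0.256 and -0.313, and those of other array pairs at -0.619 to 0.411, which cannot settle it. The block changed no other member's call and gave 108 probes called in total.

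Over all tested probes 149 were called. The count was 10 with scaling by median absolute deviation (80% of them higher, against 42.3% in the reported fit). It was 65 from the deposited log2 table, 59 after quantile normalization without further background correction, 267 with array weights and 53 by the ordinary t-test. It ranged between 50 (without wildtype replicate 3) and 142 (without null replicate 1) when 1 array was left out, with 71 without null replicate 4, 77 without wildtype replicate 1, 80 without null replicate 3 and 87 without null replicate 2. The deposited log2 table moved the median of all tested probes to -0.11, from -0.03. The cause was not tested.

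The uncalled values of Tbx4 and Tbx18 changed sign in 2 of 21 alternatives each, to 0.11 for Tbx4 with scaling by median absolute deviation and 0.06 with its probes averaged, and to 0.07 for Tbx18 without null replicate 3 and 0.06 without wildtype replicate 4. Tbx2, Tbx3, Tbx15 and Pitx1 kept their signs in all of theirs. With a detection p under 0.01, Tbx2 and the dimmer Tbx3 probe were no longer tested. After the data were seen, the alternatives were also run on 7 genes outside the members. Aldh1a2 passed in 7, Mid2 in 8, Tbxas1 in 17, Tle2 and Tle6 in 19 and Soga1 in 0 of 20, and Lcp2 in 13 of 16. With any 1 wildtype array left out, Lcp2 failed the detection filter and was not tested.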
